A study of Mus musculus with 17 samples.

Results

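The effect of doxycycline (Dox) was measured in eosinophils sorted from bone marrow, with both genotypes of mouse pooled. It was drawn from all 11 marrow arrays of the 17 in the study, 6 with Dox and 5 without, with genotype as a covariate. All mice carried the CC10-IL13 transgene, which Dox-containing food switches on to produce interleukin-13 (IL-13). Within each treatment the mice were either Pirb-/- (knockout, KO) or Pirb+/+ littermates (wildtype, WT), male and female, aged 6 to 8 weeks. With Dox there were 3 WT and 3 KO arrays, from mice fed Dox for 2 weeks, and without it 2 WT and 3 KO arrays. Another WT array without Dox had been dropped by the submitters for weak hybridization. No group combined Dox with a mouse lacking the transgene, so an effect of doxycycline itself and an effect of IL-13 cannot be told apart. The CC10 promoter is active in club cells of the airways, so the IL-13 that the transgene gives is made in the lung. The labels do not say which mice were male, or whether a replicate was a single animal or a pool, so p-values measure the spread between these samples only.

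Eosinophils mature in the marrow under IL-5 and leave it packed with cationic granule proteins, among them eosinophil peroxidase and major basic protein. IL-13 acts through a receptor made of the IL-4 receptor alpha chain and IL-13 receptor alpha 1, which activates the transcription factor STAT6. In macrophages STAT6 switches on a well known group of genes, including Retnla, Mrc1 and Arg1. Eosinophils also carry these receptor chains. The receptor that Pirb encodes, PIR-B, dampens signalling in myeloid cells.

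Each value is a log value, taken as log2 because no source used here names its base. It is centred so that 0 is the median array of the study for that gene. A value therefore says how far an array lies above or below the median array, not how bright the gene was. Presence or absence of a transcript could not be read from these values, and the labelled cell type (CD45+, Siglec-F+, CCR3+ cells) could not be checked against its defining markers by level.

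One array stood apart. In KO marrow without Dox, replicate 3 had an SD of 0.802 across genes and a median of 0.22, while the other 10 marrow arrays had SDs of 0.231 to 0.284 and medians of -0.05 to 0.02. Its mean correlation across genes within its group was -0.0268, where the other arrays had 0.0927 and 0.0996, this array counted in. With the other 10 marrow arrays it was -0.21, where each of those had 0.0774 to 0.362 with the rest of the 10. With WT esophageal arrays it was 0.380, where the other 10 had -0.447 to -0.0958. Values are therefore given for 10 arrays without this outlying array, and for all 11 beside the main genes and lists. Pirb did not separate the genotypes in marrow. Its values without Dox were -0.16 and 0.19 in WT and 0.16, -0.12 and -1.21 in KO. With Dox they were -0.21, -0.55 and 0.01 in WT and -0.01, -0.79 and -0.39 in KO. No source used here says whether this probe set lies inside the deletion, so it does not check the genotype labels.

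With Dox, a small set of genes passed the threshold. In 10 arrays 44 genes rose (0.198% of the 22180 tested) and 19 fell (0.0857%) at an adjusted p under 0.05 in limma, with Benjamini-Hochberg adjustment over all genes. The genes that rose did so by a median of 0.80 log2 (0.34 to 1.61), and those that fell changed by a median of -0.42 (-0.25 to -1.22). In all 11 arrays 11 genes rose (0.0496%) and 2 fell (0.00902%), and all 13 were among the 63. The other 50 did not pass with the outlying array in the model. How many genes passed there depended on scaling, with 55 higher and 23 lower after quantile normalization, and 117 higher and 62 lower after median centring and scaling. The direction was the same in both fits and in both genotypes for all 63, which their selection by the pooled fit favours. The median standard error over all genes was 0.078 in 10 arrays and 0.113 in 11. Over all genes the median difference was -0.03 in 10 arrays, and 58.7% of genes were lower with Dox. At an unadjusted p under 0.05 in limma 1382 genes were higher and 2665 lower in 10 arrays, most of which did not pass.

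The number of genes that passed rested on single arrays. Without 1 WT array lacking Dox it was 3 (replicate 1) or 12 (replicate 3), and without 1 such KO array it was 40 (replicate 1) or 12 (replicate 2). Leaving out a WT Dox array gave 12, 2 or 86 genes for replicates 1, 2 and 3, and leaving out a KO Dox array gave 9, 5 or 56. Maf and Myo9a passed whichever of the 10 arrays was left out. Of the single arrays left out, WT Dox replicate 2 was the one without which Il18 missed the threshold (adjusted p = 0.0518 in limma). After quantile normalization 17 of the 63 passed, among them Maf, Myo9a, Il18, Lpl, Fcgrt, Sema6d, Alox5 and Olfr1167, while Lgmn, Mertk, Axl, Vcam1, Ms4a7, Hmox1, Epx and Ifitm1 kept their direction and had adjusted p of 0.0515 to 0.0690.

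The gene with the smallest p was Maf, which encodes c-Maf, a leucine zipper transcription factor of macrophages and lymphocytes. Its values without Dox were -0.74 and -0.44 in WT and -1.27 and -0.97 in KO, with -1.81 on the outlying array. With Dox they were 0.61, 0.88 and 0.76 in WT and 0.79, 0.58 and 0.64 in KO. All 6 Dox arrays lay above all arrays without Dox, and the 6 lay close together (0.71 ± 0.12, SD, n = 6, against -0.85 ± 0.35, SD, n = 4). The difference was 1.56 ± 0.12 (SE), a 2.95-fold rise (limma adjusted p = 0.00667). In 11 arrays it was 1.71 ± 0.18 (adjusted p = 0.0150).

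Il18, a cytokine of the IL-1 family, rose 2.85-fold. Without Dox it read -0.35 and 0.35 in WT and 0.48 and 0.53 in KO, and with Dox 1.59, 1.61 and 1.76 in WT and 1.89, 2.07 and 1.65 in KO. The groups did not overlap, and the difference was 1.51 ± 0.14 (SE, adjusted p = 0.0125). With the outlying array, at -1.32, the difference was 1.83 ± 0.32 and the adjusted p 0.0728. Myo9a, an unconventional myosin, rose 2.19-fold (1.13 ± 0.10, adjusted p = 0.00992; 11 arrays 1.35 ± 0.22, adjusted p = 0.0661). Its 4 arrays without Dox lay between -0.41 and -0.18, and its Dox arrays between 0.69 and 1.14.

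**Figure D1:**
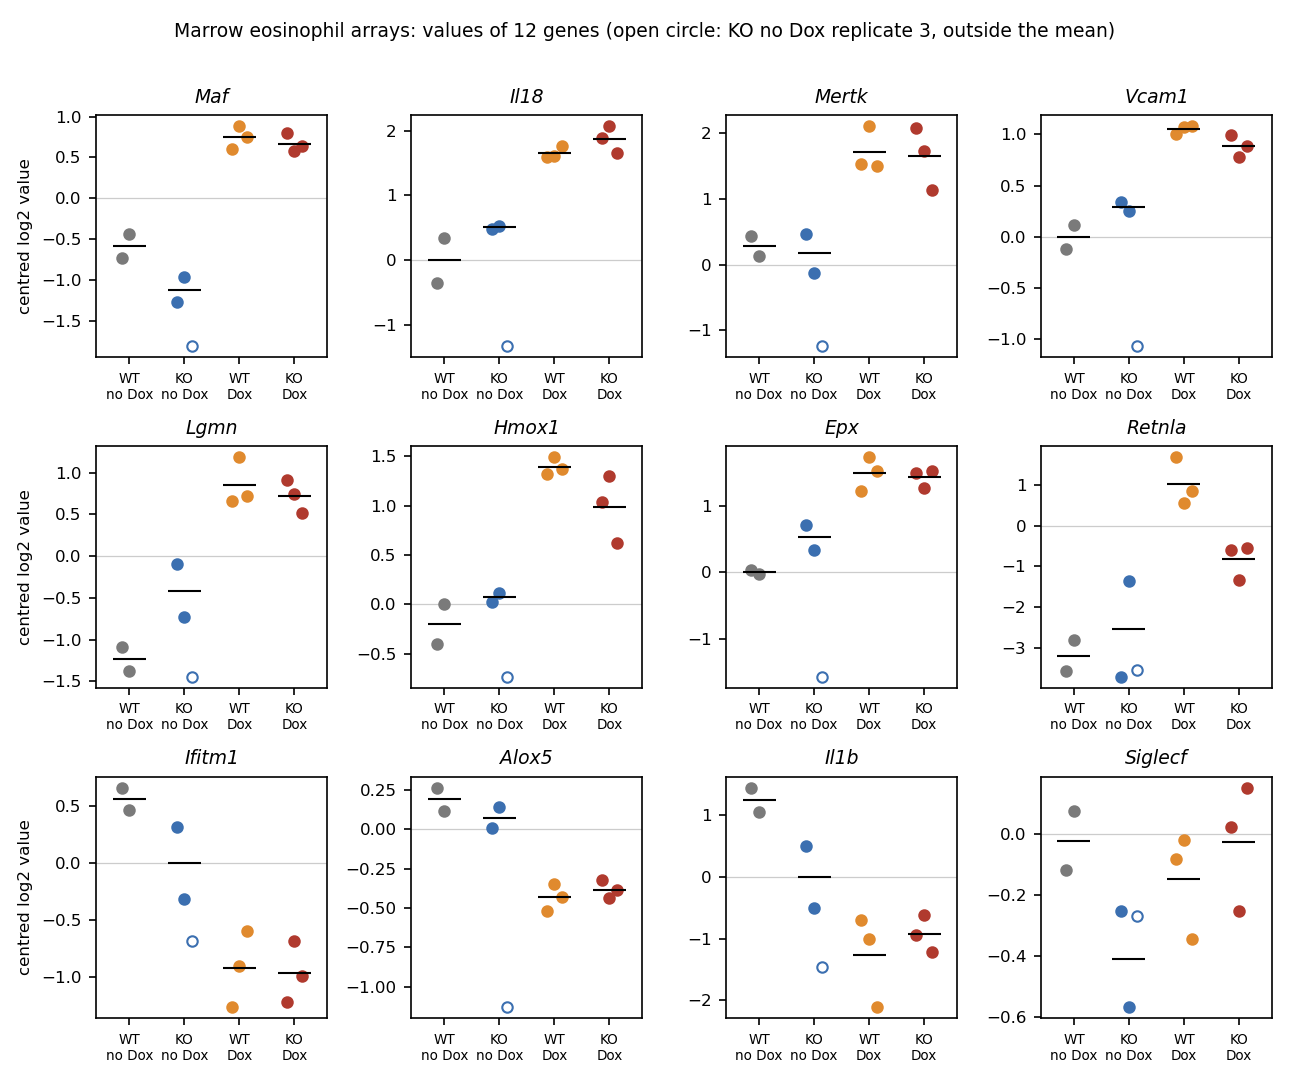
Centred log2 value of 12 genes on each of the 11 marrow arrays, by genotype and treatment, with 1 point per array. Bars are group means without the outlying array (open circle); Maf, Il18, Mertk, Vcam1, Lgmn, Hmox1 and Epx are higher on all 6 Dox arrays, Ifitm1 and Alox5 are lower on them than on the 4 arrays without Dox inside the means, and Retnla and Il1b, which did not overlap in those 10 arrays either, missed the threshold, while Siglecf overlapped.

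Receptors for dying cells and other cargo, grouped after their values were seen, were among the genes that rose. Mertk and Axl encode receptor kinases that bind dead cells through bridging proteins. Mertk read 0.43 and 0.13 in WT and 0.47 and -0.13 in KO without Dox, and 1.14 to 2.11 with Dox (median 1.63). It rose 2.74-fold (1.46 ± 0.21, SE, limma adjusted p = 0.0413), by 1.44 in WT and 1.47 in KO. In 11 arrays it did not pass (1.72 ± 0.30, adjusted p = 0.0758). Axl rose 1.97-fold (0.98 ± 0.13, adjusted p = 0.0353), from between -0.00018 and 0.72 without Dox to between 0.92 and 1.41 with it. Axl also passed in 11 arrays (1.06 ± 0.15, adjusted p = 0.0435). Lrp1, a large endocytic receptor, rose 1.74-fold in 10 arrays and passed in both fits. Fcgrt, the heavy chain of the neonatal Fc receptor that recycles immunoglobulin G, rose 2.69-fold and also passed in both. Its values were -0.74 to 0.09 without Dox and 0.83 to 1.43 with it.

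Several proteases and other proteins of lysosomes rose as well. Lgmn, the asparaginyl endopeptidase legumain, had the largest rise of all genes that passed, 3.06-fold (1.61 ± 0.22, SE, limma adjusted p = 0.0353). Its values without Dox were -1.08 and -1.38 in WT and -0.10 and -0.73 in KO, and with Dox 0.52 to 1.19 (median 0.74). The arrays did not overlap, and Lgmn passed in 11 arrays too (1.75 ± 0.23, adjusted p = 0.0435). Tpp1, tripeptidyl peptidase 1, rose by 1.03 and Psap, which encodes the precursor of the saposins that help to break down sphingolipids, by 0.96. Ctsc and Ctss, cathepsins C and S, rose by 0.85 and 0.51. Scarb2, a lysosomal membrane protein, rose by 0.72, and Sqstm1, the autophagy receptor p62, by 0.44. Of these, Lgmn was the one that passed in 11 arrays, where the others had adjusted p of 0.0525 to 0.191. These genes were grouped after their values were seen, and no list of lysosomal genes was tested.

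Genes of heme, lipid and prostaglandin handling, also grouped after their values were seen, were in the same set. Hmox1, heme oxygenase 1, rose 2.38-fold. Without Dox it read -0.40 and 0.01 in WT and 0.03 and 0.12 in KO, and with Dox 1.32, 1.49 and 1.37 in WT and 1.04, 1.30 and 0.62 in KO. The treatments did not overlap, and the difference was 1.25 ± 0.17 (SE, limma adjusted p = 0.0353; 11 arrays 1.36 ± 0.19, adjusted p = 0.0435). Lpl, lipoprotein lipase, rose 2.86-fold (1.51 ± 0.16, adjusted p = 0.0199), although on the outlying array it read 1.05 and in 11 arrays its adjusted p was 0.0661. Hpgd, the dehydrogenase that inactivates prostaglandins, rose by 1.30 (adjusted p = 0.0490), and here the arrays overlapped, since KO without Dox replicate 1 stood at 1.18 and the lowest Dox array at 1.06.

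Of the remaining genes that rose, Fcna encodes ficolin A, a soluble lectin of the complement system, and Sema6d a transmembrane semaphorin. Fcna rose 2.50-fold (1.32 ± 0.19, SE, limma adjusted p = 0.0409) and Sema6d 2.36-fold (1.24 ± 0.13, adjusted p = 0.0205). Sema6d passed in 11 arrays too (1.26 ± 0.12, adjusted p = 0.0150), as did Epb41l3 (1.11 ± 0.12), which links membrane proteins to the cytoskeleton. Abcc3, an efflux pump, and Il10rb, a chain of the IL-10 receptor, also passed in both fits, at 0.95 and 0.69 in 10 arrays. Fcna did not pass in 11 arrays (1.51 ± 0.24, adjusted p = 0.0661). Cd86, a costimulatory ligand of T cells, rose by 0.65 and Aif1, an actin-binding protein of macrophages and microglia, by 0.66, and in 11 arrays neither passed (adjusted p = 0.0661 and 0.258). The smallest rise, 0.34, was that of Olfr1226, an olfactory receptor gene.

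The granule proteins gave 1 gene that passed. Epx, eosinophil peroxidase, rose 2.30-fold. It read 0.03 and -0.03 in WT and 0.72 and 0.34 in KO without Dox. With Dox it read 1.23, 1.74 and 1.52 in WT and 1.27 to 1.52 in KO. Every Dox array lay above every array without Dox, and the difference was 1.20 ± 0.15 (SE, limma adjusted p = 0.0270). In 11 arrays, with the outlying array at -1.57, it was 1.56 ± 0.35 and did not pass (adjusted p = 0.133). Leaving out any of 7 of the 10 arrays (all but KO without Dox replicate 1, WT Dox replicate 3 and KO Dox replicate 3) also ended the call, with differences of 1.12 to 1.26 and adjusted p of 0.0506 to 0.0942.

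Of the 10 genes measured in the granule protein list, 7 were higher and 3 lower with Dox, with a median of 0.29 beside -0.03 for all genes. The list also holds Ctsg, listed with azurophil granule genes too, and Alox15, listed with lipid mediator genes too. Its counts, median and mean are therefore not of eosinophil granule proteins alone. Prg2, major basic protein, read -0.03 to 0.07 without Dox and 0.17 to 0.29 with it, without overlap (0.21 ± 0.04, SE, adjusted p = 0.0744 in limma). Prg3, its homologue, did not overlap either (0.48 ± 0.10, adjusted p = 0.0825), and Ear6, an eosinophil-associated ribonuclease, did (0.50 ± 0.14, adjusted p = 0.131). Ear genes form a family of near-identical copies, so their probe sets can share signal. The mean of the 10 was 0.13 to 0.45 on the Dox arrays, -0.24 to 0.23 on the 4 others and -0.82 on the outlying array.

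None of the genes listed as known targets of IL-4 and IL-13 passed in limma. Of 32 known IL-4 and IL-13 response genes measured, 14 were higher and 18 lower, with a median of -0.01 that turned positive when arrays were centred on their medians (0.01), beside -0.03 for all genes. At an unadjusted p under 0.05, 5 of the 32 were higher (15.6%) and 4 lower (12.5%), beside 1382 higher (6.23%) and 2665 lower of the 22180 genes. Among the 32, Dox and no Dox arrays did not overlap for 4 higher genes (12.5%: Retnla, Pparg, Mrc1 and Tgm2) and 2 lower ones (Ccl11 and Fcer2a). Over all genes this held for 368 higher (1.66%) and 878 lower (3.96%).

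Retnla, the secreted resistin-like molecule that IL-4 and IL-13 induce in macrophages, had the largest difference of these, 7.86-fold, with wide spread. Without Dox it read -3.57 and -2.82 in WT and -3.71 and -1.37 in KO, with -3.55 on the outlying array. With Dox it read 1.68, 0.55 and 0.86 in WT and -0.59, -1.33 and -0.55 in KO. All Dox arrays lay above all others, by little at the closest pair, KO Dox replicate 2 and KO without Dox replicate 2. The difference was 2.97 ± 0.60 (SE) with an adjusted p of 0.0797 in limma, and in 11 arrays 3.02 ± 0.54 and 0.0824. By genotype it was 4.23 ± 0.65 in WT and 1.72 ± 0.65 in KO, a gap of -2.51 ± 0.92 that did not pass (unadjusted p = 0.0259, adjusted p = 0.611). Esophageal eosinophils of mice on Dox read 2.73 to 3.15.

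Mrc1, the mannose receptor, differed by 0.94 ± 0.16 (SE, adjusted p = 0.0571 in limma) and Pparg, a nuclear receptor of lipid metabolism, by 1.30 ± 0.30 (0.0985). Arg1, arginase 1, differed by -0.17 ± 0.11 (0.416). The chemokine genes Ccl22 and Ccl17 stood at -0.47 ± 0.12 (0.108) and -0.11 ± 0.05 (0.301). Of the 10 genes of the receptors and their signalling, none passed in limma. An unadjusted p under 0.05 was reached by 1 (Jak1, 0.28 ± 0.10), beside 4047 of the 22180 genes. Il4ra was at 0.27 ± 0.17, Il13ra1 at -0.03 ± 0.17, Il13ra2, the decoy receptor, at -0.06 ± 0.04 and Stat6 at 0.13 ± 0.12. Cish and Socs2, feedback genes of STAT5 signalling, stood at -0.01 ± 0.07 and -0.03 ± 0.05. The endogenous Il13 gene stood at -0.45 ± 0.11 (adjusted p = 0.117).

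**Figure D2:**
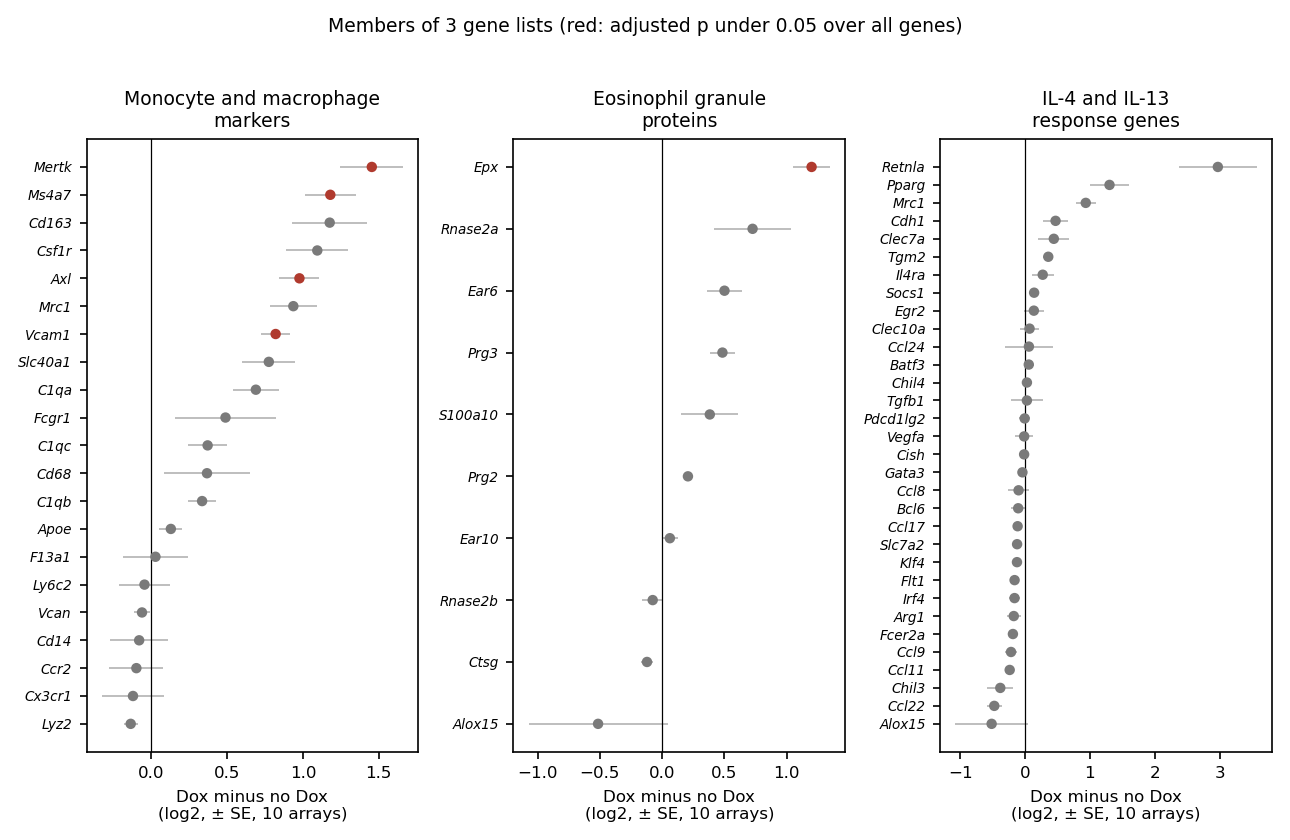
Dox minus no Dox difference (log2, ± SE, 10 arrays) of each measured monocyte and macrophage marker (21 genes), member of the granule protein list (10, with Ctsg and Alox15) and IL-4 or IL-13 response gene (32). Red marks an adjusted p under 0.05 over all genes; 4 macrophage markers and Epx are red, and Retnla has the largest difference and a wide error.

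Promoters were compared for genes that moved together. STAT6 binds palindromes made of TTC and GAA with 4 bases of any kind between them, and STAT5 those with 3 between them. Both forms read the same on either strand, so 1 search covers both strands. In RefSeq promoter windows of 300 bases (GRCm38.p6, most of each before the start site), 35 of the 44 genes that rose had a sequence and 3 held the STAT6-type form (8.57%), beside 7.43% of the 16990 genes with a window. The 3 were Epx, Il18 and Ms4a7. The STAT5-type form was found in 2 (5.71%), Ctsc and Lrp1, beside 9.15% of all. Of the genes that fell, 11 had a sequence and none held either form. The share among genes that rose was near that of all genes, and a match is a description of letters, not of binding. The windows of the 3 genes and of Retnla are shown because they hold the STAT6-type form, printed in capitals, and Retnla is the pathway's gene with the largest difference. None of these windows holds the STAT5-type form too. Ms4a7 has another listed start whose window holds neither.
Epx promoter, chr11:87875487-87875786, minus strand: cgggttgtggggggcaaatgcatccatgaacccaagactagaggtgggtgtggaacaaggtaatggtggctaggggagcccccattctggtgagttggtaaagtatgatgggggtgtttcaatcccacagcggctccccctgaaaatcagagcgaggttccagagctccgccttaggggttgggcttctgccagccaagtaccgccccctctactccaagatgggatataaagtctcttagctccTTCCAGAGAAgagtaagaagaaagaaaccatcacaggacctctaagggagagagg
Il18 promoter, chr9:50554450-50554749, plus strand: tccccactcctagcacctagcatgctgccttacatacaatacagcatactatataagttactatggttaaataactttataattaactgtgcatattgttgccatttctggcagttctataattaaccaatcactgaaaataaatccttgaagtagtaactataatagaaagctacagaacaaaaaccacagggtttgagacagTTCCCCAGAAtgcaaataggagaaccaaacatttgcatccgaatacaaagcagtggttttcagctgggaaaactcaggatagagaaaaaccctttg
Ms4a7 promoter, chr19:11336097-11336396, minus strand: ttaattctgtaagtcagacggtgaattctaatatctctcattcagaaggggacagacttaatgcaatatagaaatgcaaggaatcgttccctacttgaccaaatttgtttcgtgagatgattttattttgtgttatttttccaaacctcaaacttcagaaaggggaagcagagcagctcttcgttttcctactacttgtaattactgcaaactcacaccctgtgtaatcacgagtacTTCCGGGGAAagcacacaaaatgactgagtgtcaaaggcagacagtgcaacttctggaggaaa
Retnla promoter, chr16:48842359-48842658, plus strand: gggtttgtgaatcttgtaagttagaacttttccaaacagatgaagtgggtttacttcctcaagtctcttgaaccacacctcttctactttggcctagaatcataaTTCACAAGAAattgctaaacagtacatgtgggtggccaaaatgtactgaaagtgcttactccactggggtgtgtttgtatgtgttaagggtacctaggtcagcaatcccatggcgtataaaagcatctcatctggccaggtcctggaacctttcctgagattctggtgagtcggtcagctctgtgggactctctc

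Part of a list of monocyte and macrophage markers was higher with Dox as well. Of 21 measured, 15 were higher, with a median of 0.37, and 4 passed: Mertk, Axl, Ms4a7 and Vcam1. The median was 0.94 in WT and 0.25 in KO, a gap that was not tested. In 11 arrays the median was 0.76, and Axl alone of the list passed. Vcam1 is an adhesion molecule of endothelium and of marrow macrophages. It read -0.12 and 0.12 in WT and 0.34 and 0.25 in KO without Dox, and 1.00, 1.07 and 1.08 in WT and 1.00, 0.78 and 0.88 in KO with it. The groups did not overlap, and Vcam1 rose 1.76-fold (0.82 ± 0.10, SE, limma adjusted p = 0.0261; 11 arrays 1.05 ± 0.22, adjusted p = 0.121). Ms4a7, a membrane protein of macrophages, rose 2.27-fold (1.18 ± 0.17, adjusted p = 0.0413; 11 arrays 1.54 ± 0.36, adjusted p = 0.141).

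Dox and no Dox arrays did not overlap for 7 of the 21, the 4 above with Csf1r, Mrc1 and Slc40a1, beside 1.66% of all genes. Csf1r, the receptor for the macrophage growth factor, differed by 1.09 ± 0.21 (SE, adjusted p = 0.0681 in limma). The iron exporter Slc40a1 differed by 0.77 ± 0.17 (0.0977) and the hemoglobin scavenger receptor Cd163 by 1.18 ± 0.25 (0.0843). The complement genes C1qa, C1qb and C1qc stood at 0.69, 0.33 and 0.37. Ccr2, Ly6c2 and Cx3cr1, which mark monocytes, and Cd14 and Lyz2 stood between -0.14 and -0.05, with adjusted p of 0.177 to 0.902 in limma. The mean of the 21 was 0.35 to 0.64 on the Dox arrays, -0.19 to 0.24 on the 4 others and -0.82 on the outlying one. Their part in the results above was not tested. In sorted bulk cells, more cells of a type and more RNA per cell cannot be told apart.

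Neutrophil markers lay the other way in 10 arrays. Of 20 measured, 19 were lower with Dox, with a median of -0.28, beside 58.7% lower and a median of -0.03 for all genes. None passed in limma. At an unadjusted p under 0.05, 7 of the 20 were lower and none higher, beside 2665 lower and 1382 higher of the 22180 genes. Cxcr2, a chemokine receptor of neutrophils, had the smallest p (-0.85 ± 0.16, SE, adjusted p = 0.0675), with 0.15 to 1.11 without Dox and -0.66 to 0.37 with it, and so overlapped. Mmp8 and Ltf, of the secondary granules, stood at -0.47 ± 0.19 and -0.35 ± 0.13. The mean of the 20 was -0.09 to 0.33 on the Dox arrays and 0.14 to 0.67 on the others, and was -1.11 on the outlying array. In 11 arrays the list's median was -0.01, with 10 of 20 lower. Whether these markers bear on the genes that fell was not tested.

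**Figure D3:**
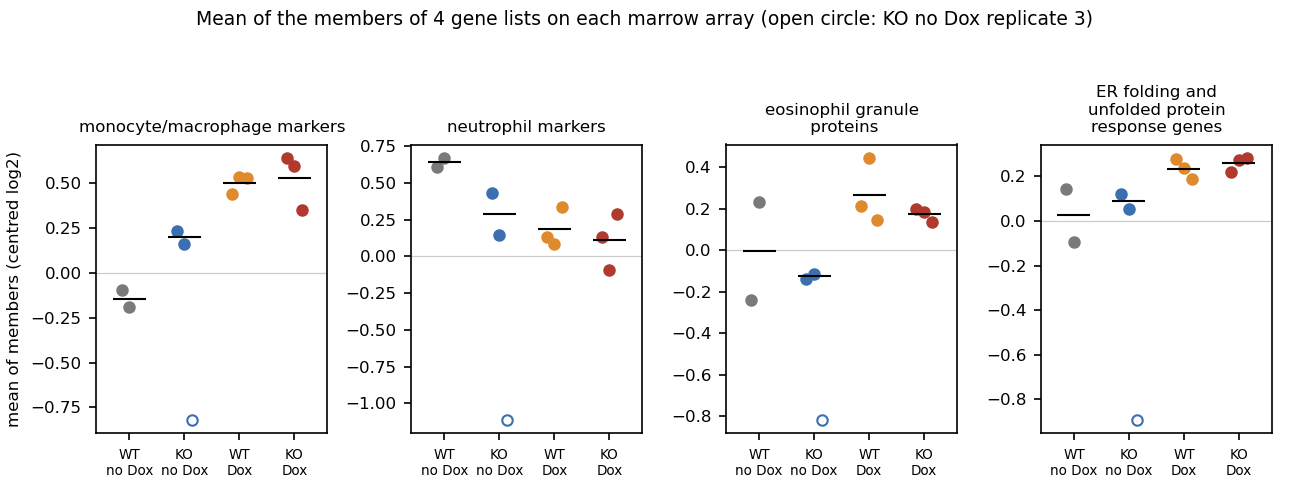
Mean centred log2 value over the measured members of 4 gene lists on each marrow array, with bars at group means without the outlying array (open circle). Monocyte and macrophage markers are at 0.35 to 0.64 on the 6 Dox arrays and at or below 0.24 on the others, neutrophil and granule means overlap between treatments, and genes of protein folding in the endoplasmic reticulum (ER) are at 0.19 to 0.28 with Dox and at or below 0.14 without it.

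None of the 13 eosinophil surface markers passed in limma. An unadjusted p under 0.05 was reached by 2, Adgre1 and Cd101, beside 4047 of the 22180 genes. Siglecf stood at -0.12 and 0.07 in WT and -0.25 and -0.57 in KO without Dox, and at -0.34 to 0.15 with it, overlapping (0.13 ± 0.13, SE, adjusted p = 0.628 in limma). Ccr3 spread widely without Dox (-2.21 to 0.06) and stood at -0.62 to 0.29 with it (0.85 ± 0.38, adjusted p = 0.275). Il5ra, the IL-5 receptor alpha chain, differed by 0.17 ± 0.40. Adgre1, an adhesion receptor, stood at 0.75 ± 0.27 (adjusted p = 0.200) and Cd101 at -0.40 ± 0.12 (0.145), lower without overlap. Gata1, a regulator of the eosinophil lineage, stood at -0.04 ± 0.07, and Mki67, a marker of dividing cells, at 0.08 ± 0.11. The 13 surface markers had a median of -0.01 in 10 arrays, which became 0.02 after median centring.

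Among the genes that fell, Ifitm1, an interferon-induced membrane protein, had the largest change. It read 0.66 and 0.46 in WT and 0.32 and -0.32 in KO without Dox, and -1.26 to -0.60 with it (median -0.94). The change was -1.22 ± 0.19 (SE, limma adjusted p = 0.0453), to 0.429 of the level without Dox, and in 11 arrays -1.07 ± 0.22 (adjusted p = 0.112). Of 24 interferon-stimulated genes measured, a list that does not hold Ifitm1, 14 were higher and none passed in limma. Of the 24, 6 had an unadjusted p under 0.05, beside 4047 of the 22180 genes.

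Alox5, 5-lipoxygenase, the first enzyme of leukotriene synthesis, fell by 0.54 on the log2 scale. Without Dox it read 0.26 and 0.12 in WT and 0.01 and 0.14 in KO, and with Dox -0.52, -0.35 and -0.43 in WT and -0.33, -0.44 and -0.38 in KO. All Dox arrays lay below the 4 others (-0.54 ± 0.06, SE, limma adjusted p = 0.0221). The outlying array stood lower still, at -1.13, and with it the change was -0.31 ± 0.22 and did not pass (adjusted p = 0.408). The call was also lost without 1 of 5 single arrays (WT without Dox replicates 1 and 3, KO without Dox replicate 2, WT Dox replicate 2 and KO Dox replicate 2), at -0.55 to -0.49 with adjusted p up to 0.0621, and with all arrays of the series in the model (adjusted p = 0.209). Its partner Alox5ap stood at -0.28 ± 0.09 (adjusted p = 0.162) and Ltc4s, the leukotriene C4 synthase, at 0.09 ± 0.08 (0.545).

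Prostaglandin genes pointed both ways without passing in limma. Ptgs2, cyclooxygenase 2, stood at -1.20 ± 0.24 (SE, adjusted p = 0.0780) and Hpgds, the prostaglandin D synthase of blood cells, at 1.24 ± 0.23 (0.0681), and neither overlapped between groups in 10 arrays. Il1b, the cytokine IL-1 beta, read 1.44 and 1.05 in WT and 0.50 and -0.50 in KO without Dox, and -2.11 to -0.62 with it. Its difference was -1.72 ± 0.40 (adjusted p = 0.0991), opposite in sign to that of Il18. Of 29 cytokine and chemokine genes, 23 were lower, beside 58.7% of all genes, with a median of -0.13. Il18 was the one of the 29 that passed.

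The other genes that fell included 3 olfactory receptor genes (Olfr1167, Olfr38 and Olfr68), 3 microRNA genes (Mir297b, Mir500 and Mir3106) and 5 genes with provisional names. Olfr1167 read 0.71 and 0.75 in WT and 0.47 and 0.60 in KO without Dox, with 0.50 on the outlying array, and -0.28 to 0.00382 with it. It fell by 0.76 ± 0.08 (SE, limma adjusted p = 0.0170; 11 arrays -0.75 ± 0.08, adjusted p = 0.0150). Olfr38 fell by 0.57 ± 0.07 (adjusted p = 0.0268) and passed in 11 arrays too. Genes of lymphocytes in this set were Lat, an adaptor of the T cell receptor (-0.42 ± 0.06), and Rag2, of antigen receptor recombination (-0.26 ± 0.04). In 11 arrays neither passed (limma adjusted p = 0.0671 and 0.0808). Of 18 measured B and plasma cell markers, 9 were higher and 9 lower in 10 arrays (median -0.000279), and Rag2 was the one that passed. Of 19 T and NK cell markers, a list without Lat, 6 were higher and 13 lower (median -0.07), and none passed. Whether the transcripts of the genes that fell were above background cannot be seen in centred values.

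Mir500 fell by 0.50 on the log2 scale (limma adjusted p = 0.0488), from 0.07 to 0.51 without Dox to -0.31 to -0.05 with it. Its probe set does not tell the arms of the hairpin or the mature form from a longer transcript. Both mature arms from RefSeq (GRCm38.p6) are shown with the seed, bases 2 to 8, in capitals, and their seeds differ. Mir297b and Mir3106 are named only.
miR-500-3p, chrX:7237695-7237716, minus strand: aAUGCACCugggcaaggguuca
miR-500-5p, chrX:7237730-7237754, minus strand: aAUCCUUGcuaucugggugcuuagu

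Broad functional lists had small medians. Of 33 genes of ER folding and the unfolded protein response, 31 were higher with Dox, with a median of 0.15, and none passed in limma. At an unadjusted p under 0.05, 8 of the 33 (24.2%) were higher and none lower. The mean of the 33 was 0.19 to 0.28 on the 6 Dox arrays and -0.09 to 0.14 on the 4 without Dox, without overlap. Of 60 subunits of oxidative phosphorylation 51 were higher (median 0.11), 16 of them (26.7%) at an unadjusted p under 0.05 and none passing in limma. The unadjusted share of higher genes over the whole array was 6.23%. Of 54 mitochondrial ribosomal proteins 43 were higher (median 0.09) and of 43 cytosolic ribosomal proteins 35 (0.06), with 8 and 7 of them higher at an unadjusted p under 0.05. Of 16 housekeeping genes 14 were higher, with a median of 0.12, so the other medians lay near that of the housekeeping genes. The outlying array raised them: in 11 arrays they were 0.30 for ER folding genes, 0.31 for oxidative phosphorylation and 0.32 for housekeeping genes. Cell cycle genes went from 0.07 to 0.33 in the same way. Without that array the SD across genes was larger on the Dox arrays (mean 0.265 against 0.240, exact permutation p = 0.01, two-sided, labels permuted within genotype, the smallest p that 100 permutations can give) and the array median lower (-0.03 against -0.00113, exact permutation p = 0.04). In 11 arrays the exact permutation p was 0.815 for the SD and 0.015 for the median.

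**Figure D4:**
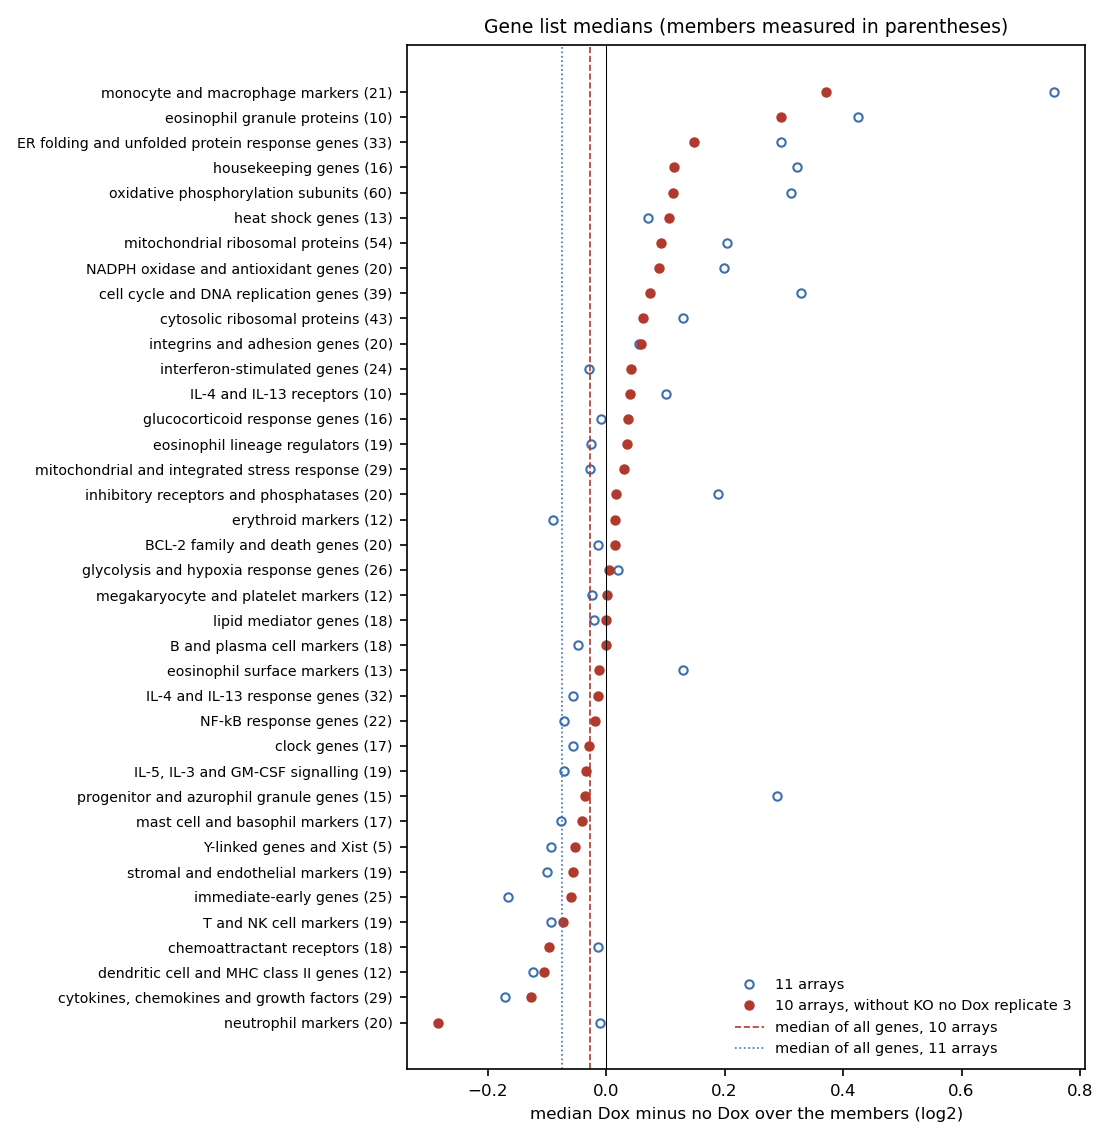
Median Dox minus no Dox difference (log2) over the measured members of 38 gene lists, in 10 arrays (filled) and 11 arrays (open), with the median of all genes as lines (-0.03 and -0.07). Monocyte and macrophage markers (0.37) and granule proteins (0.29) are at the top in 10 arrays and neutrophil markers (-0.28) at the bottom, and the outlying array moves several medians by more than their size.

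Pooling the genotypes assumes a like effect in both. The 63 genes were picked by the pooled fit, which favours genes of one sign in both. Their shared sign therefore does not test the pooling. Of the 63 genes, 41 had the larger change in WT, and of the 44 that rose, 30 did. The share of all genes with the larger change in WT was not counted, so these counts have no background. Fcna rose by 1.78 ± 0.17 in WT and stood at 0.87 ± 0.17 in KO, Psap at 1.29 ± 0.12 and 0.63 ± 0.12, and Vcam1 at 1.05 ± 0.09 and 0.59 ± 0.09 (SE). Maf went the other way, with 1.33 ± 0.13 in WT and 1.79 ± 0.13 in KO. For 11 of the 63 the difference between genotypes had an unadjusted p under 0.05. No gene of the 22180 passed that test in limma after adjustment, in 10 arrays (1695 with an unadjusted p under 0.05) or in 11 (1192). The smallest p in 10 arrays belonged to Mir695, Faf1 and Smc6 (adjusted p = 0.433 for each).

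Within one genotype fewer genes passed. In WT 16 did in 10 arrays (0.0721%), of which 10 were among the 63, and in KO 1 did (0.00451%), Maf. At an unadjusted p under 0.05 in limma the order was the other way, with 2372 genes in WT and 3530 in KO. The WT genes among the 63 were Lgmn, Fcna, Il18, Hmox1, Epx, Maf, Psap, Vcam1, Lrp1 and Olfr1167. The other 6, named after their values were seen, were Cd2ap, Pld3, Clec4a1, Rps16 and Sdc4, which rose by 0.62 to 1.64, and Mir3475, which fell by 1.20. Without 1 array, the WT count went to 76 (WT without Dox replicate 1), 9 (WT without Dox replicate 3), 10 (either KO array without Dox), 0 (any WT Dox array or KO Dox replicate 2), 1 (KO Dox replicate 1) or 2 (KO Dox replicate 3). The KO count went to 15 or 17 without KO replicate 1 or 2 lacking Dox, to 3 without WT Dox replicate 1, and to 0 without WT Dox replicate 2 or 3 or any KO Dox array. In 11 arrays no gene passed in WT (996 with an unadjusted p under 0.05) or in KO (5151).

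**Figure D5:**
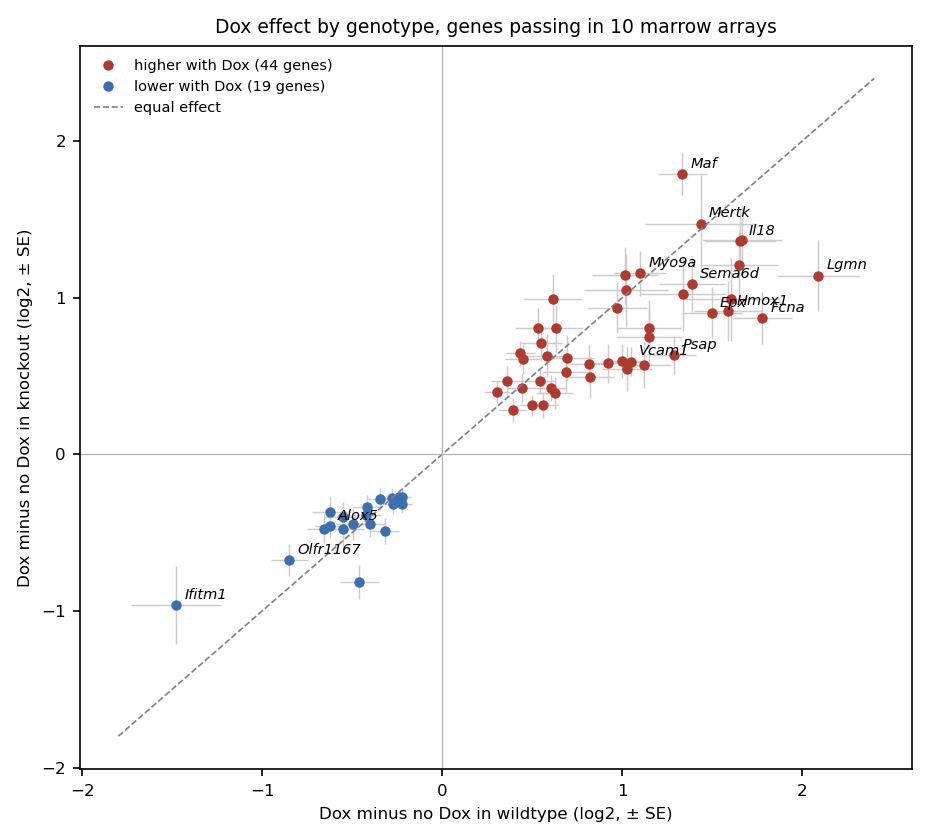
Dox minus no Dox difference (log2, ± SE) in WT (x axis) and KO (y axis) of the 63 genes that passed in 10 arrays, with the line of equal effect. All 63 lie in the quadrants of equal sign, which their selection by the pooled fit favours. Of the 44 that rose, 30 have the larger value in WT, and Maf is among those with the larger value in KO. The share over all genes was not counted.

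Esophageal eosinophils were collected with Dox only, so no Dox effect can be given there. Of the 44 genes that rose in marrow, 36 had a mean below 0 in WT esophagus and 31 in KO esophagus, that is, below the median array. Over all genes the medians of the 6 esophageal arrays were -0.01 to 0.13, and the share of all genes below 0 was not counted. The 44 were picked as high on marrow Dox arrays, so values below the median array elsewhere are partly built in. Vcam1 read -3.24 to -2.87 across the 6 esophageal arrays, Epx -2.16 to -1.97 and Il18 -1.69 to -1.17. Il10rb, at -0.04 to 0.97, was among the genes with a mean above 0 there. Ifitm1 and Alox5, which fell in marrow, were above 0 on all 6 (0.91 to 1.81 and 0.51 to 1.74). Tissue, digestion and treatment differ between these samples and marrow arrays without Dox, so these values are set side by side with no test.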

How the data were processed

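Eosinophils were sorted, and their RNA amplified (Nugen Ovation One-Direct) and hybridized to 1-colour Affymetrix arrays, per the labels' protocols. The submitters' processing notes name Affymetrix Expression Console. The authors deposited centred log values, taken as log2. In 97.1% of the 33793 probe sets the middle pair of values was equal and opposite (tolerance 2e-05), so 0 marks the median of 18 arrays, of which 17 are in the table. The sources used here give no normalization between arrays and no scan batches. Brightness is lost, so no dim-probe filter could be applied, and the number of arrays limits the precision.

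Probe sets with 1 gene symbol in the platform annotation (23521; 1814 had several, 8458 none; 23328 were matched through Entrez identifiers) were averaged into 22180 genes, 1082 of them from several probe sets. Probe sets of 1 gene can disagree, and using the lowest-numbered one was an alternative. Linear models were fitted in limma 3.58.1 (R 4.3.3) with eBayes, Dox plus genotype over 11 or 10 marrow arrays, and 4 group means for effects by genotype. Tests were two-sided with a threshold of 0.05. The model was checked on simulated data, with genes drawn independently and equal spread on all arrays. That check does not cover an array as wide as the outlying one. Fold changes are powers of the log2 differences, and SE is the model's.

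Named genes were, in each fit, up to 12 largest changes per direction that passed without overlap (where fewer than 5 passed, the 5 of smallest p), 3 for the genotype difference, up to 4 of smallest p per list, and fixed identity and receptor genes. The other genes that passed were added. The genes and the 38 lists (835 measured memberships) were chosen with earlier results of these data known. Alternatives are in the closing section.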

Additional observations from a re-analysis of the deposited data

Results flagged for a closer look

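Values were tested for a sample standing apart in 68 groups of 4 to 6 arrays, of which 6 stood apart, and chance alone flags about 1 in 20. KO without Dox replicate 3 stood apart from the 5 arrays without Dox in its median (0.22) and in its SD across genes (0.802). WT Dox replicate 2 had the highest mean of the granule protein list, 0.45. Among the genes that changed, KO Dox replicate 2 was high for Epb41l3 (1.46) and for Rnf186 (-0.13), and WT Dox replicate 3 was high for Olfr68 (0.24).

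Of the 10272 probe sets without a single gene symbol, which enter no comparison above, 20 passed in 10 arrays, 6 higher and 14 lower with Dox (0.195%, beside 0.225% of the probe sets with 1 symbol).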

How the results depend on the processing

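All 63 genes of the 10-array fit kept their direction under the alternatives run (20, or 19 for the 13 genes that the range filter removes), as did all 13 of the 11-array fit under 21. Of the 38 list medians, 6 in 10 arrays and 15 in 11 changed sign with median centring or quantile normalization. The counts moved. In 11 arrays, 13 genes passed, against 52 with all arrays of the series in the model, 34 without the genotype term, 21 after median centring, 78 after quantile normalization, 179 after centring and scaling, 286 with array weights (130 higher, 156 lower; the outlying array weighed 0.0607), 27 with a filter on range, and 0 to 63 without 1 array each. In 10 arrays, 63 passed, against 109 without the genotype term, 17 after quantile normalization, and 2 to 86 without 1 array each. Median centring gave 86 (68 higher, 18 lower). The WT effect in 11 arrays (0 genes) gave 15 after quantile normalization, 3 after scaling, 1 with weights and 0 to 16 without 1 array each. In 10 arrays (16 genes) it gave 5 after scaling, 0 with weights (2077 at an unadjusted p under 0.05) and 0 to 76 without 1 array each. The KO effect in 11 arrays (0 genes) gave 4 after quantile normalization, 5 after scaling, 3289 with weights (978 higher, 2311 lower) and 0 to 1 without 1 array each. In 10 arrays (1 gene) it gave 0 after quantile normalization (2629 unadjusted), 4 after scaling, 3 with weights and 0 to 17 without 1 array each. The genotype difference (0 genes) gave 0 to 4 in 11 arrays and 0 to 8 in 10 without 1 array each. The causes of these moves were not tested, except that leaving out arrays leaves fewer samples.

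Same-numbered samples of different groups deviated together in some pairs and not in others (r over 0.1 in 6 of 15, median 0.0256, -0.0815 to 0.203), so the numbers were not taken as pairs. The 30 pairs of other numbers had a median of -0.0195 (-0.233 to 0.21). The 2 WT arrays without Dox deviate from their mean as mirror images, which constrains their values. Whether same-numbered samples shared a batch was not tested. With the replicate block 4 genes passed in 11 arrays and 13 in 10, of which 3 and 10 were among those called without it, and 0 in WT (2269 unadjusted) and 0 in KO (4023 unadjusted) in 10 arrays.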
